A study of Mus musculus with 12 samples.

Results

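The genes described here encode 6 secreted proteins, several of which mouse macrophages make in type 2 immune settings. The resistin-like molecules are *Retnla* (RELMα, also called Fizz1) and *Retnlg* (RELMγ). The chitinase-like proteins are *Chil3* (Ym1, older symbol Chi3l3), *Chil4* (Ym2, Chi3l4) and *Chil1* (Chi3l1), and the eosinophil-type ribonuclease is *Rnase2a* (Ear11). Members were the non-control probes whose RefSeq transcript belongs to one of these genes. That gave 6 probes, 1 for each of the 6 genes, among 55681 probes on the array. Total RNA of peritoneal macrophages of wild-type (WT) C57BL/6 mice aged 8 weeks was labelled with Cy3 and hybridised to 12 Agilent mouse expression arrays. Adherent cells were kept without serum overnight before treatment. The groups were IL4 at 10 ng/ml with emodin at 50 µM, IL4 at 10 ng/ml alone, and vehicle control, with 4 arrays each, numbered 1 to 4 in every group. Emodin is a plant anthraquinone. Sample descriptions give 6 h of treatment while the treatment protocol describes a longer, overnight one, and which applied was not settled. Whether an array holds RNA of 1 mouse or of several is not given in the sources used here, and each p-value below therefore reflects only how far these arrays differed, which can include technical variation.

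IL4 binds a receptor that contains the IL4 receptor alpha chain and activates JAK kinases, which phosphorylate the transcription factor STAT6. Dimers of STAT6 bind palindromic DNA elements near the start sites of their target genes. In mouse macrophages *Retnla* and *Chil3* are textbook markers of the resulting alternative activation, and both are also known to depend on STAT6 and on factors of the C/EBP family. Ym1 and Ym2 share the fold of chitinases but lack chitin-cleaving activity. RELMα is a cysteine-rich secreted protein of tissue repair and worm infection, and the Ear proteins are ribonucleases first described in eosinophils.

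The promoters of 5 members are shown because *Chil3* and *Chil4*, and *Retnla* and *Retnlg*, are neighbouring gene copies, and because motifs of the STAT type lie in 4 of them. All 6 members were matched by symbol in the RefSeq promoter table (GRCm38.p6), whose windows run from 250 bases before to 50 after the start of the gene. Capitals mark matches to TTC followed by GAA after 4 unspecified bases, the spacing preferred by STAT6, to TTCNNNGAA, the spacing of other STAT proteins, and to TTGCNNAA, the core of the C/EBP element. Each motif was searched on both strands, and the TTC motifs are their own reverse complement.
Retnla: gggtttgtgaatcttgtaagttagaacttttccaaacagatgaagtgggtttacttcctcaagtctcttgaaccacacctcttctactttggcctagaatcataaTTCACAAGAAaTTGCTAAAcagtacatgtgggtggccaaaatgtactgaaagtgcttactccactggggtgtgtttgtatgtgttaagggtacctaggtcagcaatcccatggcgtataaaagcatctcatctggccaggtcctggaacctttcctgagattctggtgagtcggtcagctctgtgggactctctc
Retnlg: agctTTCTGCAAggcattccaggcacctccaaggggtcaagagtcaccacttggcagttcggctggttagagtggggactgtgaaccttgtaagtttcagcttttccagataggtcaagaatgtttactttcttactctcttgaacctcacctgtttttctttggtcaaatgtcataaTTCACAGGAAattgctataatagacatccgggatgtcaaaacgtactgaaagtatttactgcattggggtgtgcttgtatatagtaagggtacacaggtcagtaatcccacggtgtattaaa
Chil3: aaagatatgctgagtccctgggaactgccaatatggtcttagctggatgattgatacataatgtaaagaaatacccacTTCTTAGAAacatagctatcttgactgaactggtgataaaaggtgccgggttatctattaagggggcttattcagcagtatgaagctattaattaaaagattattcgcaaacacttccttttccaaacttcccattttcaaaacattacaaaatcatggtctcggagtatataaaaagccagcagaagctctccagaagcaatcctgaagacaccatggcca
Chil4: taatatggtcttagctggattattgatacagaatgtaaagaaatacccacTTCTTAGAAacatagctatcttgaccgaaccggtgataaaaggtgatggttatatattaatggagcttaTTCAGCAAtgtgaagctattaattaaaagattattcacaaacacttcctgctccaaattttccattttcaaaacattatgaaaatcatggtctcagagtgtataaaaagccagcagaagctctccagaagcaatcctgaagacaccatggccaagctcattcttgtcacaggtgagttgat
Rnase2a: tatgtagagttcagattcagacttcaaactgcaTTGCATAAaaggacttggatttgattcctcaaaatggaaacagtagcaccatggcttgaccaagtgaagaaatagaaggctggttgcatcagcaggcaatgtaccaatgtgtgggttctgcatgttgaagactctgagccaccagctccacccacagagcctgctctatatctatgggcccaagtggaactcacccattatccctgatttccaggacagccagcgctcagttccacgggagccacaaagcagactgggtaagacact

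These windows lie at chr16:48842359-48842658 on the plus strand (*Retnla*), chr16:48872358-48872657 on the plus strand (*Retnlg*), chr3:106167515-106167814 on the minus strand (*Chil3*), chr3:106219430-106219729 on the minus strand (*Chil4*) and chr14:51256063-51256362 on the minus strand (*Rnase2a*). *Retnla* and *Retnlg* both held the STAT6 spacing, starting 145 and 72 bases before the start of their genes, a motif found in 6.95% of the 32851 promoters in the table. *Chil3* and *Chil4* both held the 9-base run TTCTTAGAA, a match to TTCNNNGAA, 172 and 200 bases before the start. That motif was found in 8.3% of all promoters. TTGCNNAA lay in the windows of *Retnla*, *Retnlg*, *Chil4* and *Rnase2a*, starting 134, 246, 131 and 217 bases upstream, against 10.8% of all promoters. The *Chil1* window, at chr1:134181906-134182205 on the plus strand, held no match to the 3 motifs. Between *Chil3* and *Chil4*, 92.6% of 271 aligned promoter bases were identical, and between *Retnla* and *Retnlg* 77.4% of 226 were. All other pairs of members lay at 55.9% to 68.4%, clearly less alike. No annotated gene lies between *Retnla* and *Retnlg*, nor between *Chil3* and *Chil4*. A match describes the letters of a window and not a bound site.

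Values below are log2 intensities minus the 75th percentile of the array, so 0 is the intensity of the probe at that percentile and 1 unit is a doubling. The 75th percentile lay at intensities of 447 to 516 on IL4+emodin arrays, 761 to 813 on IL4 arrays and 633 to 810 on control arrays, and 47.2% to 49.5%, 51.0% to 53.1% and 49.7% to 50.8% of probes were well above background. All IL4+emodin arrays lay on a slide of their own, which means that emodin and slide cannot be told apart. All IL4 arrays lay in slide row 1 and all others in row 2, so row and IL4 cannot be told apart either. All 8 measured macrophage markers were above background on all 12 arrays. Their summed level (the sum of linear intensities relative to the 75th percentile) was 664 to 789, 732 to 828 and 654 to 667 in IL4+emodin, IL4 and control. With arrays scaled to the mean spike-in signal instead, the sums were 133 to 161, 324 to 400 and 235 to 292. The groups then did not overlap, and IL4+emodin was lowest. The series' design text names blood neutrophils instead of peritoneal macrophages. Of 12 neutrophil markers 8 to 10 were above background on each array, with *S100a8*, *Csf3r*, *Mmp8*, *Lcn2* and *Elane* among those above it on all 12 and *Ngp* and *Stfa2l1* below it on all 12. Numbers 1 and 2 are labelled female and 3 and 4 male in each group. The data go against the label on the 6 arrays labelled male: *Xist*, which only cells with an inactive X chromosome express, averaged 0.47 ± 0.48 there and 0.61 ± 0.57 on arrays labelled female (SD, n = 6 each). The Y-linked genes *Ddx3y*, *Eif2s3y*, *Kdm5d* and *Uty* were below background on every array. The numbers are therefore used as numbers, and the labelled sexes are named as such.

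IL4 raised *Chil3*, *Chil4* and *Rnase2a*, each about 6- to 10-fold on average, and did not change *Chil1* beyond the spread. *Rnase2a* was the member whose difference varied least between numbers, and *Retnla* the most variable among those with a positive difference. In the fit over all 12 arrays, 3 of the 5 members tested were called higher and 0 lower, against 8.98% of all 20862 genes called higher and 8.56% lower. In 3 of the 5 members tested the IL4 arrays all lay above the control arrays, as did 12.1% of all genes tested. In 4 of the 5 the IL4 array was higher than the control array in all 4 numbers, as was the case for 23.7% of all genes tested.

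*Rnase2a* lay at 0.13, 0.65, 1.45 and -0.14 on the IL4 arrays numbered 1 to 4, against -2.67, -1.86, -1.25 and -2.60 on the control arrays. The groups were far apart, with the lowest IL4 array above the highest control array. Its log2 difference was 2.62 ± 0.38 (SE, n = 4 per group; limma adjusted p = 0.000511), or 6.14-fold. Within numbers the differences were 2.80, 2.51, 2.70 and 2.47, so that all 4 fell within 5.52- to 6.97-fold.

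*Chil4* lay at 1.92, 3.17, 3.73 and 3.05 with IL4, against -2.20, 0.14, 1.49 and -0.63 in control. Every IL4 array was above every control array, but the control arrays spanned a 12.9-fold range. The log2 difference was 3.27 ± 0.78 (n = 4 per group; limma adjusted p = 0.0120), or 9.66-fold. *Chil3* lay at 8.60, 9.31, 9.39 and 9.15 with IL4, against 4.52, 6.95, 8.18 and 6.18 in control. The IL4 arrays were close together, within a 1.73-fold range, while the control arrays spanned 12.7-fold. Its log2 difference was 2.66 ± 0.72 (n = 4 per group; limma adjusted p = 0.0234), or 6.31-fold. That call was lost when control array 4 or IL4 array 2, 3 or 4 was left out (adjusted p up to 0.0592) and with an ordinary test without limma's moderation (adjusted p = 0.0557). Within numbers *Chil3* differed by 4.08, 2.36, 1.21 and 2.97 and *Chil4* by 4.13, 3.04, 2.24 and 3.68. For both genes the largest difference was in number 1, whose control array was the lowest, and the smallest in number 3, whose control array was the highest. On the IL4 arrays the *Chil3* probe reached intensities of 315406 to 514756, below the scanner's saturation value of 778876 to 778932, and no member spot was marked saturated.

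*Retnla* lay at 5.27, 5.46, 6.52 and 4.64 with IL4, against 2.02, 3.58, 5.74 and 1.13 in control. The groups overlapped, since control array 3 was above 3 of the 4 IL4 arrays, and the control arrays spanned a 24.4-fold range. The log2 difference of 2.35 ± 1.04 (n = 4 per group) was not called, with a limma adjusted p of 0.155. Arrays with the same number deviated together in these 2 groups, and when the number entered the fit as a block *Retnla* was called (SE 0.42, adjusted p = 0.00388). With that block 4 of the 5 members tested were called higher, against 12.7% of all genes. Within numbers IL4 exceeded control by 3.24, 1.88, 0.77 and 3.51, which is higher in 4 of 4, with the smallest difference in number 3. Leaving out control array 3 alone also gave a call (3.23, adjusted p = 0.0439).

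**Figure D1:**
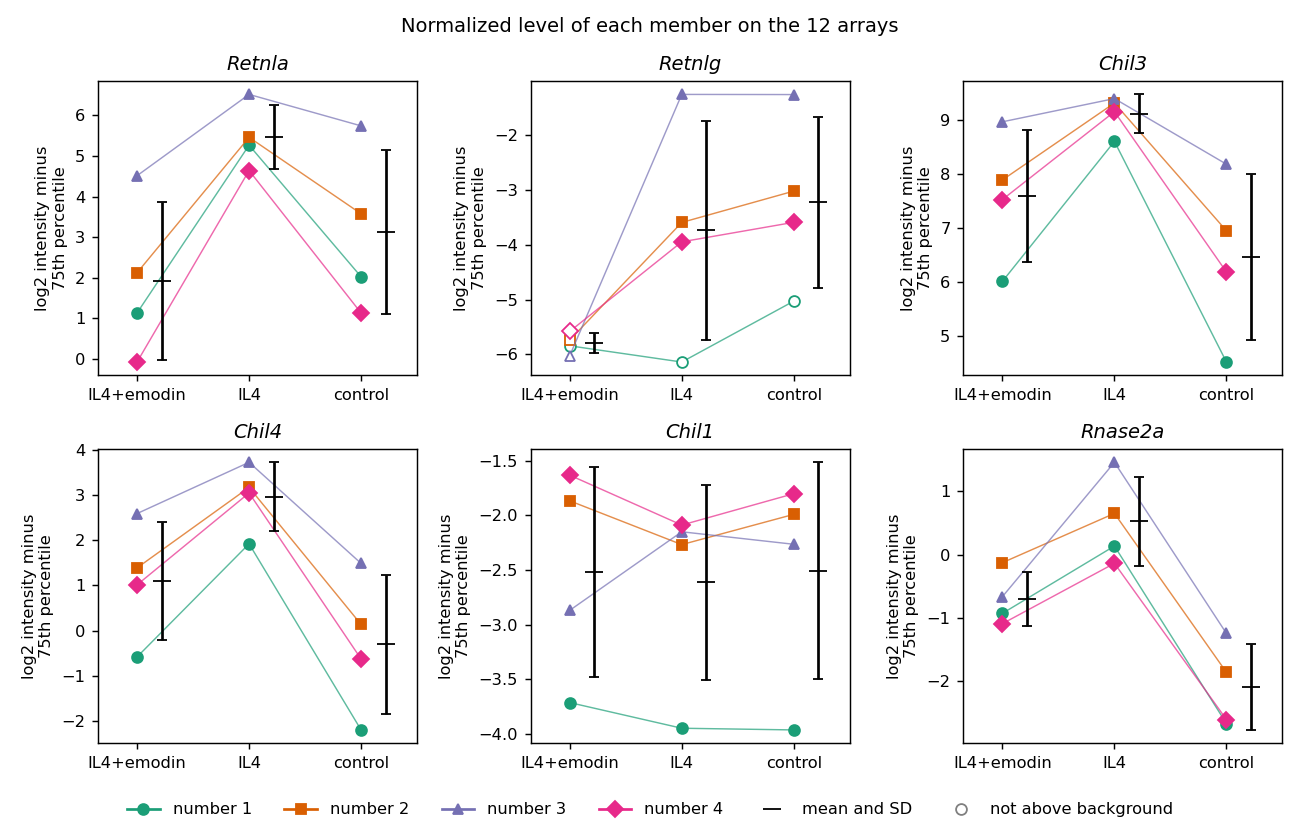
The vertical axis of each panel is the log2 intensity of a member minus the 75th percentile of the array, for IL4+emodin, IL4 and control; lines join arrays of the same number, black bars give mean and SD of 4 arrays, and open symbols are not above background. Number 3 is highest for *Retnla*, *Chil3* and *Chil4* in all 3 groups, and number 1 is lowest for *Chil1* in all 3.

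*Chil1*, whose product (BRP-39) is made by macrophages and many other cells, lay at -3.95, -2.27, -2.15 and -2.09 with IL4, against -3.96, -1.99, -2.27 and -1.80 in control. The values matched number by number more than they differed by group. The log2 difference was -0.11 ± 0.59 (n = 4 per group; limma adjusted p = 0.932). It was not called with the number as a block either (adjusted p = 0.696). *Retnlg*, which is known from bone marrow and neutrophils, lay at -6.14, -3.59, -1.26 and -3.95 with IL4, against -5.03, -3.02, -1.26 and -3.59 in control. It was above background on 3 of 4 arrays in each of these groups, number 1 being the one below, and so did not pass the filter and was not tested in the fit. Since values below background have no order, no test is given for it. Exact permutation tests were run 18 times (6 members, 3 comparisons, two-sided, 4 arrays against 4), and those of *Retnlg* are not used. The smallest p the design allows is 0.0286, and *Chil3*, *Chil4* and *Rnase2a* reached it for IL4 against control. *Retnla* gave an exact p = 0.114 there and *Chil1* an exact p = 0.686.

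With emodin added to IL4, *Retnla* and *Rnase2a* fell below their level with IL4 alone, and *Chil3* and *Chil4* were lower in every number without passing the threshold. *Retnla* showed the largest difference, about 12-fold, and *Chil1* showed none beyond the spread. Of the 5 members tested, 2 were called lower and 0 higher, against 26.5% of all genes called lower and 39.4% higher. In 4 of the 5 members tested IL4+emodin was lower in all 4 numbers, as in 30.4% of all genes tested. In 1 of the 5, *Retnla*, the groups did not overlap, against 24.4% of all genes with IL4+emodin below IL4 on all arrays, so that share of the members was no larger than that of all genes.

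*Retnla* lay at 1.13, 2.12, 4.51 and -0.08 on the IL4+emodin arrays numbered 1 to 4, against 5.27, 5.46, 6.52 and 4.64 with IL4 alone. The highest IL4+emodin array, number 3, was just below the lowest IL4 array. *Retnla* fell by 3.55 ± 1.04 on the log2 scale (SE, n = 4 per group; limma adjusted p = 0.0102), which is 11.7-fold, and the exact p was 0.0286. Within numbers the differences were -4.13, -3.34, -2.00 and -4.72. The call was kept when any single array was left out (adjusted p 0.00197 to 0.0325).

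*Rnase2a* lay at -0.93, -0.13, -0.66 and -1.09 with IL4+emodin, against 0.13, 0.65, 1.45 and -0.14 with IL4. IL4+emodin array 2 was a little above IL4 array 4, and otherwise the groups were apart. *Rnase2a* fell by 1.23 ± 0.38 on the log2 scale (n = 4 per group; limma adjusted p = 0.0140), or 2.34-fold, with an exact p = 0.0571. Number 3 showed the largest within-number difference, -2.12, and the others lay at -1.06, -0.78 and -0.95.

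*Chil3* lay at 6.01, 7.89, 8.96 and 7.52 with IL4+emodin, against 8.60, 9.31, 9.39 and 9.15 with IL4. Number 3 with emodin stayed above number 1 with IL4, so the groups overlapped. *Chil4* lay at -0.59, 1.39, 2.59 and 1.01, against 1.92, 3.17, 3.73 and 3.05, and overlapped in the same 2 arrays. The log2 differences were -1.52 ± 0.72 for *Chil3* (n = 4 per group; limma adjusted p = 0.0803, exact p = 0.0571) and -1.87 ± 0.78 for *Chil4* (limma adjusted p = 0.0511, exact p = 0.0571). Both were lower in 4 of 4 numbers, with *Chil3* at -2.59, -1.42, -0.43 and -1.63 and *Chil4* at -2.51, -1.78, -1.14 and -2.04. Whether they were called depended on the processing. Among other settings, quantile scaling called *Chil3* (adjusted p = 0.0207), spike-in scaling called both (adjusted p = 0.00188 and 0.00148), and a fit of the 2 compared groups alone called both (adjusted p = 0.0339 and 0.0295).

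*Chil1* lay at -3.71, -1.87, -2.87 and -1.63 with IL4+emodin, against -3.95, -2.27, -2.15 and -2.09 with IL4, a log2 difference of 0.09 ± 0.59 (n = 4 per group; limma adjusted p = 0.898). Number 3 was lower and the other 3 numbers higher with emodin, and the sign of the difference turned under quantile (-0.11) and spike-in scaling (-0.99, adjusted p = 0.120). *Retnlg* was not above background on any IL4+emodin array, where it lay at -5.84, -5.74, -6.02 and -5.58. Against the IL4 arrays, where 3 of 4 measured it, *Retnlg* was at least 1.24-fold lower, a bound set by the background limit of each array. Number 1 with IL4 was itself below background, and no test is given.

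**Figure D2:**
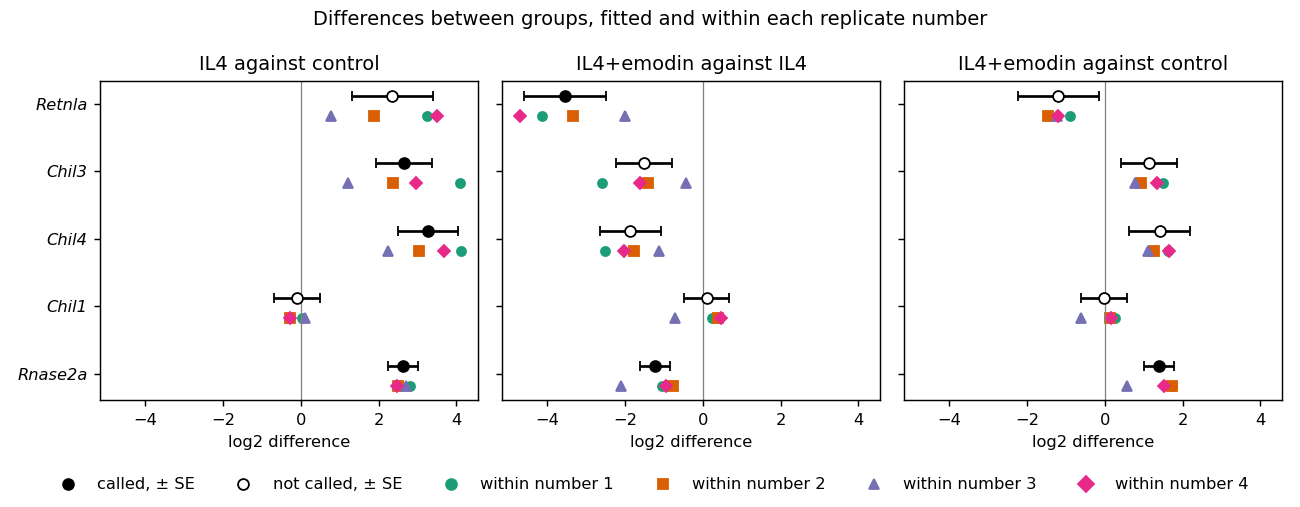
Log2 differences between groups for the 5 members tested in the fit, with black circles for the fitted difference ± SE over 4 arrays a group (filled where the adjusted p was below 0.05) and coloured symbols for the difference within each number. All 4 within-number differences lie above 0 for *Rnase2a* in IL4 against control (2.47 to 2.80), and all 4 lie below 0 for *Retnla* in IL4+emodin against IL4 (-4.72 to -2.00).

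Set against control, *Rnase2a* was higher with IL4+emodin, whereas *Retnla* lay below the vehicle level in every number without being called. *Chil3* and *Chil4* were above control in every number and also not called. Of the 5 members tested, 1 was called higher and 0 lower, against 37.3% of all genes higher and 25.6% lower, so the members were not called more often than other genes. The IL4+emodin and IL4 comparisons share the control arrays, so their values are given side by side.

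*Rnase2a* had the values -0.93, -0.13, -0.66 and -1.09 with IL4+emodin, against -2.67, -1.86, -1.25 and -2.60 in control. All IL4+emodin arrays were above all control arrays, as for 32.0% of all genes tested, and the exact p was 0.0286. *Rnase2a* was higher by 1.39 ± 0.38 (n = 4 per group; limma adjusted p = 0.00752), which is 2.62-fold, next to a log2 difference of 2.62 for IL4 alone, which is 6.14-fold. With spike-in scaling that difference was 0.43, higher in 3 of 4 numbers, and was not called (adjusted p = 0.238). Within numbers it was 1.74, 1.73, 0.58 and 1.51.

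For *Chil3* the log2 difference from control was 1.14 ± 0.72 (n = 4 per group; limma adjusted p = 0.184), next to 2.66 for IL4 alone, and for *Chil4* 1.41 ± 0.78 (limma adjusted p = 0.134), next to 3.27. Both were higher in 4 of 4 numbers, *Chil3* by 0.78 to 1.49 and *Chil4* by 1.10 to 1.64, as were 42.7% of all genes tested. With spike-in scaling those differences were 0.18 for *Chil3* (higher in 2 of 4 numbers, limma adjusted p = 0.799) and 0.45 for *Chil4* (higher in 4 of 4, limma adjusted p = 0.564). *Retnla* differed from control by -1.19 ± 1.04 (n = 4 per group; limma adjusted p = 0.336), next to 2.35 for IL4 alone. Its within-number differences, -0.89, -1.45, -1.23 and -1.21, were close to each other, and 29.3% of all genes were likewise lower in all 4 numbers. *Retnla* was thus the one member tested for which IL4+emodin lay on the other side of control from IL4. *Chil1* differed from control by -0.02 ± 0.59 (n = 4 per group; limma adjusted p = 0.984).

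*Retnlg* was at least 1.77-fold lower with IL4+emodin than in control. It was above background on 0 of 4 IL4+emodin arrays and on 3 of 4 control arrays. In number 3, where the control array stood at -1.26, the IL4+emodin array stood at -6.02.

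Differences between 2 members on one array do not move when an array is scaled by a single factor, and were examined after the values were seen. Quantile scaling is not a single factor and can move them. *Retnla* minus *Chil3* was -4.88, -5.76, -4.45 and -7.60 on IL4+emodin arrays, -3.33, -3.85, -2.88 and -4.51 on IL4 arrays, and -2.49, -3.37, -2.44 and -5.05 on control arrays. It was lower with IL4+emodin than with IL4 in 4 of 4 numbers (difference -2.03, exact p = 0.0571) and than in control in 4 of 4 (-2.34, exact p = 0.0857). IL4 and control differed by -0.31 (exact p = 0.714). *Retnla* was thus further below *Chil3* with IL4+emodin in each number, by differences that did not pass the exact test. With quantile scaling IL4+emodin differed from IL4 by -3.65 for *Retnla* and -2.08 for *Chil3*, next to -3.55 and -1.52. The change in *Retnla* minus *Chil3* was then smaller.

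*Chil4* minus *Chil3* was -6.59, -6.50, -6.37 and -6.51 with IL4+emodin, -6.68, -6.14, -5.66 and -6.10 with IL4, and -6.72, -6.81, -6.69 and -6.81 in control. The control arrays agreed within an SD of 0.063 although both genes varied about 13-fold among them. With IL4 the difference was 0.61 larger than in control (exact p = 0.0286, larger in 4 of 4 numbers), and with IL4+emodin 0.27 larger than in control (exact p = 0.0286, 4 of 4). IL4+emodin and IL4 differed by -0.35 (exact p = 0.143, lower in 3 of 4). The sign of that change turned with quantile scaling, where IL4+emodin differed from IL4 by -2.08 for *Chil3* and -1.87 for *Chil4*. From control IL4+emodin then differed by 0.72 for *Chil3* and 1.40 for *Chil4*, which kept the sign. Whether the *Chil3* and *Chil4* probes bind each other's transcripts was not tested, as probe sequences were not used here.

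**Figure D3:**
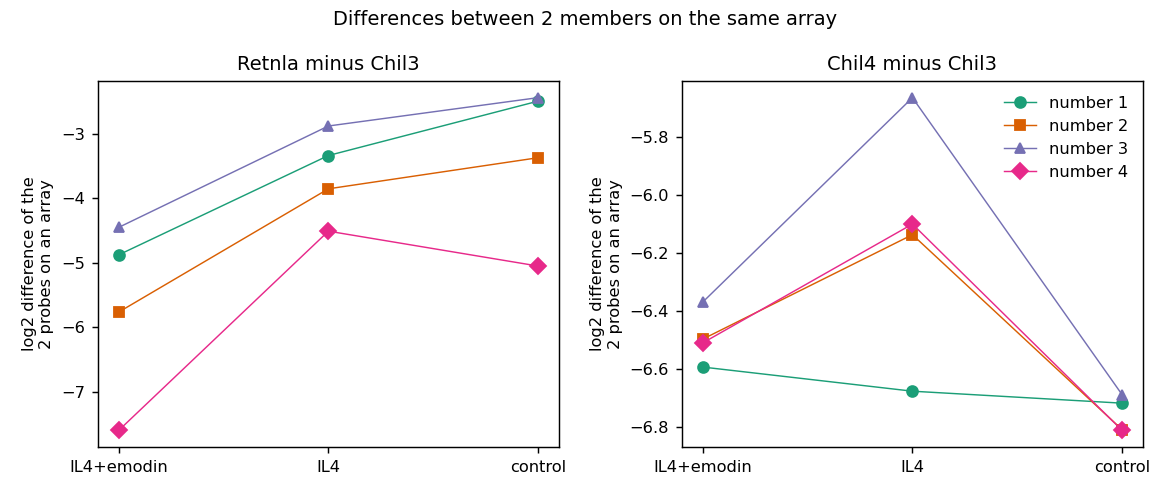
The vertical axis is the log2 difference between the probes of 2 members on the same array, *Retnla* minus *Chil3* and *Chil4* minus *Chil3*, for IL4+emodin, IL4 and control, with lines joining arrays of the same number. *Retnla* minus *Chil3* is lower with IL4+emodin than with IL4 in each number, and *Chil4* minus *Chil3* is higher with IL4 than in control in each number.

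Several members varied with the array number as well as with treatment, and *Retnla*, *Chil3* and *Chil4* did so in a repeated order. For *Chil3* and *Chil4* the arrays ran 1, 4, 2, 3 from low to high in all 3 groups. For *Retnla* they ran 4, 1, 2, 3 in all 3 groups, and for *Chil1* number 1 was lowest and number 4 highest in each. *Rnase2a* had no repeated order: it ran 4, 1, 3, 2 with IL4+emodin, 4, 1, 2, 3 with IL4 and 1, 4, 2, 3 in control. *Retnlg* ran 1, 4, 2, 3 with IL4 and in control and was not detected with IL4+emodin. The arrays of *Retnla* and *Chil3* lay closest together with IL4: *Retnla* spanned 24.1-fold with IL4+emodin, 3.67-fold with IL4 and 24.4-fold in control, and *Chil3* spanned 7.75-, 1.73- and 12.7-fold. This did not hold for *Rnase2a*, which spanned 1.95-, 3.02- and 2.68-fold.

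Over the 12 arrays *Chil3* and *Chil4* correlated with r = 0.990, and with r = 0.982 after the group means were subtracted. These correlations, like all below, are descriptions over arrays that share slide, column and treatment. *Retnla* deviations correlated with those of *Chil3* at 0.73, of *Chil4* at 0.74 and of *Rnase2a* at 0.73, but with *Chil1* at -0.02. By deviations, the genes most like *Retnla* over 12 arrays were *Tmem184c* (0.968), *Gpsm2* (0.965) and *Tfrc* (0.964). Those most like *Chil4* after *Chil3* were *Mageh1* (0.980), *Timp1* (0.976) and *Hebp2* (0.974). *Rnase2a* was most like *Ear1* (0.953), another eosinophil-type ribonuclease, and *Chil1* most like *Cxcl12* (0.960), a chemokine of stromal cells. Over all 12 values, *Acp5*, which encodes the tartrate-resistant acid phosphatase of osteoclasts and macrophages, followed *Chil4* for *Chil3* (0.957), and *Tfrc*, the transferrin receptor, led for *Rnase2a* (0.964).

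Several marker genes of mast cells moved with the same numbers. The summed level of 7 mast cell markers was 0.85, 1.35, 2.20 and 1.12 on IL4+emodin arrays 1 to 4, 0.58, 0.98, 2.06 and 0.74 on IL4 arrays, and 0.54, 1.17, 1.81 and 0.74 on control arrays, so number 3 was highest and number 1 lowest in all 3 groups. Deviations of *Chil4* correlated with those of *Cpa3* at 0.94 and of *Cma1* at 0.92 (n = 12 arrays), both mast cell proteases. The other markers gave 0.88 (*Mcpt4*), 0.84 (*Fcer1a*), 0.83 (*Tpsb2*), 0.14 (*Kit*) and 0.03 (*Ms4a2*). *Cpa3*, *Cma1* and *Mcpt4* ran 1, 4, 2, 3 from low to high in all 3 groups, the order of *Chil3* and *Chil4*. In array RNA from mixed cells, fewer cells of a type and less RNA per cell cannot be told apart. The part of mast cells in the members' levels was not tested. The mast cell sums overlapped between the groups, and 1 of 5 tested markers, *Kit*, was called higher with IL4+emodin than with IL4 (1.92, limma adjusted p = 2.77e-07), a gene named after its value was seen.

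*Chil1* went with mesothelial and fibroblast genes instead, though not with these alone. The sum of 6 such markers was 20.1, 44.2, 44.3 and 94.0 with IL4+emodin, 15.8, 41.4, 42.6 and 78.3 with IL4, and 14.2, 37.0, 35.6 and 65.6 in control, with number 1 lowest and number 4 highest each time, as for *Chil1*. *Dcn* had the highest mean level of the 6 in each group, at 4.99, 4.69 and 4.60, and is the largest part of that sum on average. It was also among the genes most like *Chil1* over all 12 values (r = 0.918). Deviations of *Chil1* correlated with *Dcn* at 0.94, *Wt1* at 0.87, *Msln* at 0.87, *Col3a1* at 0.86, *Upk3b* at 0.85 and *Col1a1* at 0.74 (n = 12 arrays). Over the neutrophil markers its correlations ran from -0.67 (*Csf3r*) to 0.87 (*S100a9*), with *S100a8* at 0.72. None of the 6 mesothelial and fibroblast markers was called in any of the 3 comparisons. The part of any of these cells in the *Chil1* level was not tested.

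Of the 8 eosinophil markers, which include *Ear1* and *Ear6* of the ribonuclease list, the granule genes *Prg2*, *Epx* and *Prg3* were below background on all 12 arrays, while *Siglecf*, which some macrophages also express, was above it on all 12. Their summed level was 1.10 to 1.20 with IL4+emodin, 0.91 to 1.55 with IL4 and 1.48 to 1.75 in control. With spike-in scaling it was 0.23 to 0.27, 0.47 to 0.70 and 0.63 to 0.74, so that IL4+emodin lay below both other groups. *Siglecf* had the highest mean level of the 8 markers in each group, at -0.38, -0.53 and 0.31. It is the largest part of this sum, which is thus not specific to eosinophils. The eosinophil receptor genes *Ccr3* and *Il5ra* were each above background on 0 of 4 IL4+emodin, 4 of 4 IL4 and 2 of 4 control arrays. Their mean levels, partly from values at background, were -3.82, -3.49 and -3.77 (*Ccr3*) and -4.91, -4.34 and -4.16 (*Il5ra*). Of 5 tested eosinophil markers, 1 was called higher and 1 lower with IL4+emodin than with IL4, against 39.4% and 26.5% of all genes. Against control 1 was called higher and 3 lower. The part of eosinophils in the *Rnase2a* level was not tested. The summed level of 12 neutrophil markers was 151 to 178, 115 to 128 and 115 to 135 in the same groups. With spike-in scaling that order turned, to 30.3 to 40.6, 48.4 to 70.0 and 41.4 to 59.1 in units of the mean spike-in signal. *Csf3r* and *Elane* make up most of the sum. Of 8 tested markers 3 were called higher and 0 lower with IL4+emodin than with IL4. Of all genes 39.4% were called higher and 26.5% lower, so the share of markers called higher was near that of all genes. Deviations of *Retnla* correlated with those of the 12 neutrophil markers at values from -0.44 (*Csf3r*) to 0.94 (the granule gene *Ltf*). *Elane* gave -0.39, *Mpo* 0.01 and *Lcn2* 0.81. The part of neutrophils was not tested.

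**Figure D4:**
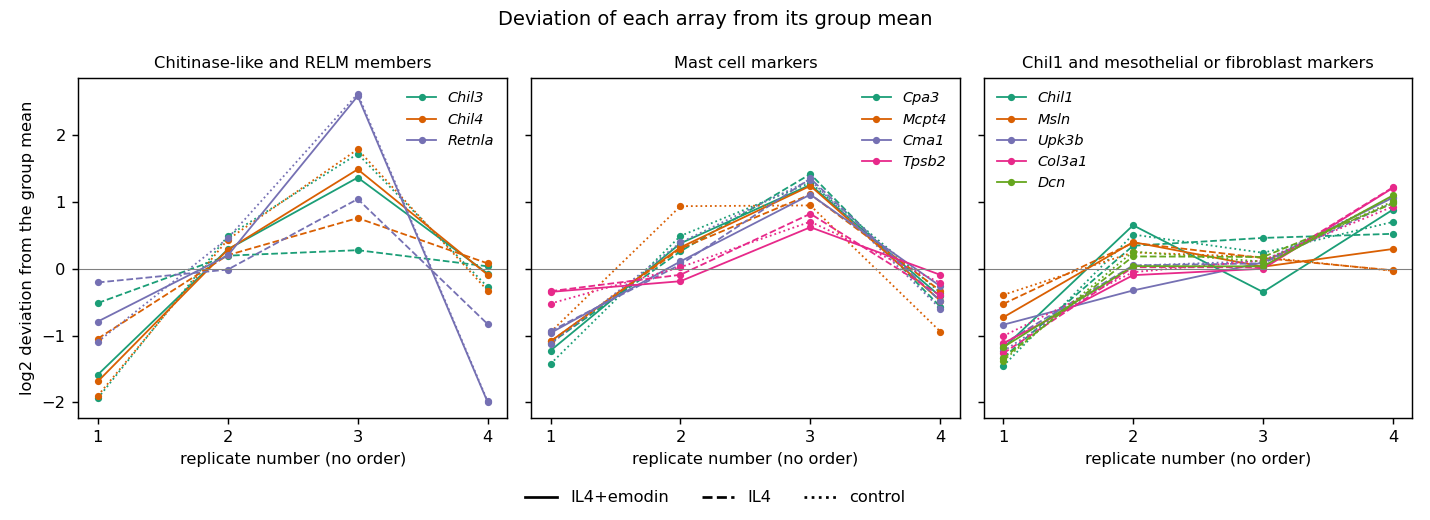
Each point is the log2 deviation of an array from the mean of its group, by array number. The left panel shows *Chil3*, *Chil4* and *Retnla*. The middle panel shows the mast cell markers *Cpa3*, *Mcpt4*, *Cma1* and *Tpsb2*. The right panel shows *Chil1* with the mesothelial or fibroblast markers *Msln*, *Upk3b*, *Col3a1* and *Dcn*. Line styles give IL4+emodin, IL4 and control. Number 3 stands highest for the genes of the left and middle panels, and number 1 lowest for those of the right panel.

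Labelled sex had no called effect on any member. Arrays labelled male minus arrays labelled female gave 1.24 ± 0.54 for *Chil4* (limma adjusted p = 0.518) and 1.02 ± 0.52 for *Chil3* (adjusted p = 0.597). Over all genes 0 of 20862 were called (0%) by limma, with 1931 at an unadjusted p below 0.05. The difference in the effect of IL4, or of emodin, between the labelled sexes was called for none of the members, with limma adjusted p above 0.999 in each case. Over all genes 0 were called for either, with 272 and 507 at an unadjusted p below 0.05.

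Other genes of the 3 families moved in both directions. Among the resistin family, *Retn*, which encodes resistin, was above background on the 4 IL4+emodin arrays and on none of the others. It was at least 2.97-fold higher with IL4+emodin than with IL4 and at least 2.52-fold higher than in control, opposite to the direction of *Retnla*. *Retn* passed the filter only through the IL4+emodin arrays, so these are bounds and no p-value is given. *Retnlb* was below background on all arrays. Of 3 tested glycosyl hydrolase family 18 genes besides the members, 0 were called for IL4 against control and 2 were called higher and 0 lower with IL4+emodin than with IL4, or 1 and 2 with spike-in scaling, against 39.4% of all genes called higher and 26.5% lower. *Ovgp1*, the oviduct glycoprotein gene, was higher by 1.66 ± 0.19 (n = 4 per group; limma adjusted p = 1.3e-05), and *Chid1* by 0.48 ± 0.14 (adjusted p = 0.0104), whose sign turned with spike-in scaling (-0.60). The true chitinase gene *Chit1* was below background on all 12 arrays and *Chia1* above it on 3.

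Of 11 tested genes of the ribonuclease A family and its inhibitor, 1 was called higher and 2 lower for IL4 against control (median 0.12, all genes -0.03). Of all genes 8.98% were called higher and 8.56% lower. *Ear10* rose by 1.70 ± 0.36 (n = 4 per group; limma adjusted p = 0.00623). *Ear1* and *Ear2* differed by 0.94 and 0.98 and were not called (adjusted p = 0.142 and 0.119), but were called once the number entered as a block (adjusted p = 0.0159 and 0.00129). *Rnase6* fell by 0.76 ± 0.15 (adjusted p = 0.00404) and *Rnase10* by 0.58 ± 0.15 (adjusted p = 0.0183).

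For IL4+emodin against IL4, 3 of these 11 were called higher and 7 lower (median -0.77, all genes 0.17), against 39.4% and 26.5% of all genes. With quantile scaling they were 1 and 7, and with spike-in scaling 0 and 11. *Ear10* fell by 2.29 ± 0.36 (n = 4 per group; limma adjusted p = 0.000144), *Ear1* by 1.97 ± 0.40 (adjusted p = 0.00106), *Ear2* by 1.91 ± 0.40 (adjusted p = 0.00118) and *Rnase6* by 1.03 ± 0.15 (adjusted p = 8.51e-05). *Ear1* and *Rnase6* were each above background on 1 of 4 IL4+emodin arrays and *Ear10* on 3 of 4, so the sizes of these falls rest partly on values at background. *Ang*, which encodes angiogenin, fell by 0.90 ± 0.18 (adjusted p = 0.000955). Against control, 1 was called higher and 3 lower with IL4+emodin (0 and 7 with quantile, 0 and 11 with spike-in scaling). *Ear1*, detected on 1 of 4 IL4+emodin arrays and 4 of 4 control arrays, was called lower there (adjusted p = 0.0427), and *Rnase2a* was called higher. The Ear genes are close copies of each other, and binding of a probe to transcripts of another copy was not tested.

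The regulators of these genes were described from a list of 20, all tested. IL4 against control gave 11 called higher and 1 lower (median 0.49, all genes -0.03), against 8.98% and 8.56% of all genes. The counts were 11 and 1 with quantile and with spike-in scaling too. The transcription factors *Irf4* (4.78 ± 0.16), *Klf4* (1.53 ± 0.09), *Egr2* (1.44 ± 0.13) and *Pparg* (1.34 ± 0.09) rose, as did the histone demethylase gene *Kdm6b* (1.16 ± 0.20), which is known to act on *Retnla* and *Chil3* chromatin (SE, n = 4 per group; limma adjusted p of 0.00133 or less).

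With IL4+emodin against IL4, 6 of the 20 regulators were called higher and 11 lower (median -0.57, all genes 0.17), against 39.4% and 26.5% of all genes. The counts were 4 and 11 with quantile and 0 and 19 with spike-in scaling. *Irf4* fell by 6.45 ± 0.16, *Cebpa* by 2.56 ± 0.11, *Egr2* by 2.31 ± 0.13, *Klf4* by 1.91 ± 0.09 and *Cebpd* by 1.77 ± 0.10 (n = 4 per group; limma adjusted p of 4.66e-08 or less). *Il4ra*, the receptor chain, fell by 1.40 ± 0.15, though its other probe gave only -0.17. *Cebpb*, named for its role at these promoters and outside the rule on size, was 0.28 ± 0.09 higher, and lower by spike-in scaling (-0.80). Against control, 7 were called higher and 9 lower (5 and 9 with quantile, 1 and 17 with spike-in scaling), and *Cebpa* and *Irf4* lay 1.67 below control each, while *Pparg* lay 1.73 above it (adjusted p = 1.6e-08).

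Of 6 tested receptors or binding partners named for the encoded proteins, 2 were called higher and 0 lower for IL4 against control, and 3 higher and 1 lower for IL4+emodin against IL4 (1 and 1 with quantile, 0 and 3 with spike-in scaling). All genes were called higher and lower in 8.98% and 8.56% for IL4 against control and in 39.4% and 26.5% for IL4+emodin against IL4, so the emodin counts were near those of all genes. *Tlr4*, a proposed receptor of resistin, fell by 2.39 ± 0.09 with emodin (n = 4 per group; limma adjusted p = 2.53e-09) next to 0.47 ± 0.09 for IL4 against control. *Il13ra2*, a receptor named for the Chi3l1 protein, was above background on 3 of 4 IL4 arrays and on 0 arrays of the other groups, and was not tested.

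**Figure D5:**
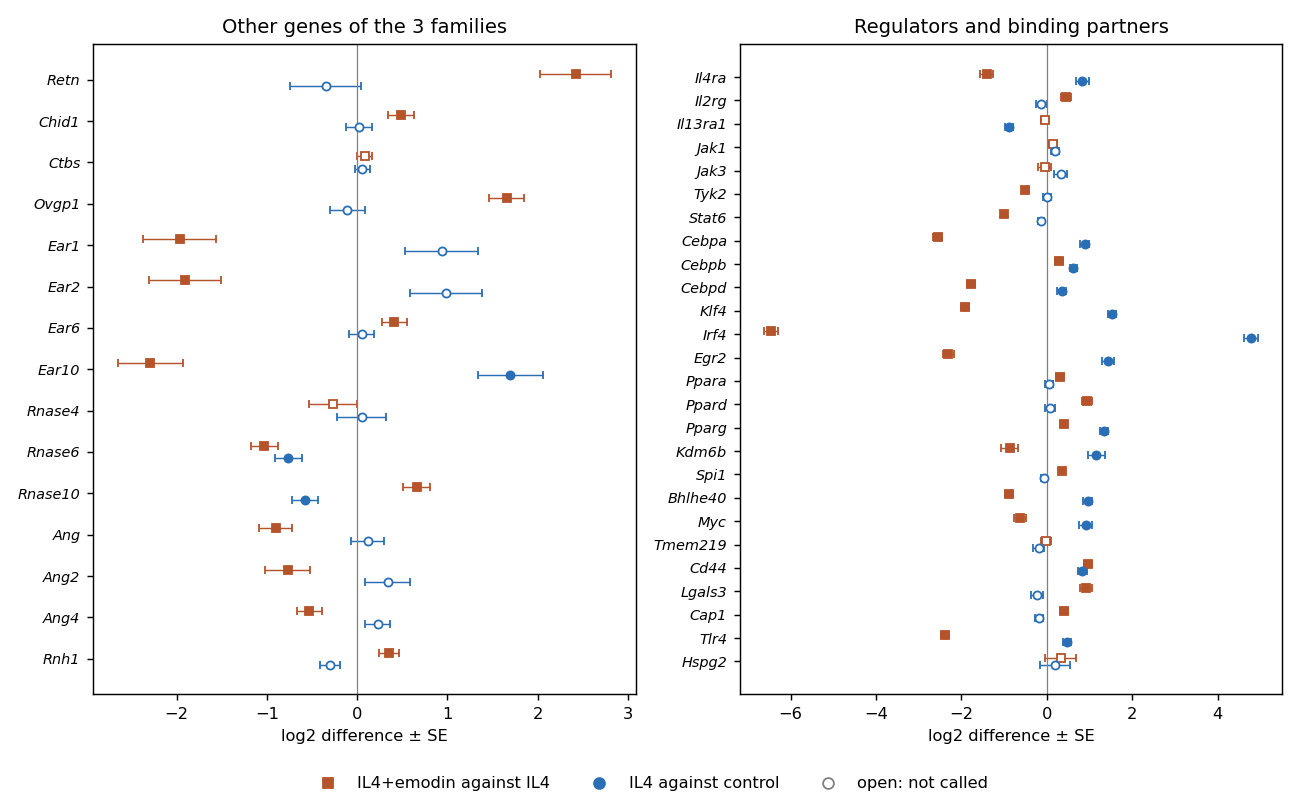
Log2 differences ± SE (4 arrays a group) of the other tested genes of the resistin, glycosyl hydrolase 18 and ribonuclease A families, and of the regulators and binding partners, with squares for IL4+emodin against IL4 and circles for IL4 against control; open symbols were not called. *Irf4* has the widest span, at 4.78 with IL4 and -6.45 with emodin, and *Ear10*, *Ear1* and *Ear2* lie on opposite sides of 0 in the 2 comparisons. *Retn* was above background on the IL4+emodin arrays only.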

How the data were processed

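The members and gene lists were chosen with earlier results of these data known, so no list count is independent evidence. The deposited scanner file of an array gives the processed intensity of each spot, from which the scanner software had subtracted background, per the file headers. That software was Agilent Feature Extraction 10.7.3.1, per the submitters' processing notes. The deposited value table holds log2 values. The table was recomputed here as quantile-normalized values centred on each probe's median (r = 1 on every array), and served as an alternative. Its column medians lay between -0.0078 and 0.0137.

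Control spots and outlier spots were left out, spots of a probe averaged, and log2 intensity taken minus the 75th percentile of the array. Of all probes, 27705 were kept because some group had them well above background on each of its 4 arrays, and a gene was its probe with the highest mean (20862 genes). Probes were named by RefSeq transcript, which gave 27509 probes a symbol. Differences were fitted with limma 3.58.1 (R 4.3.3) as 3 group means with 9 residual degrees of freedom, Benjamini-Hochberg adjusted over all genes, and called below 0.05. Single members were also compared by exact permutation tests, and precision is limited by 4 arrays per group. A bound ("at least") sets the bright group's mean against the background limit of the dim group's arrays.

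Named genes were the members, up to 6 called genes of each list with the largest differences, and the genes most correlated with each member. Alternatives were a replicate block, labelled sex as a covariate, quantile and spike-in scaling, normexp background correction (offset 50, on the median spot signal, as no mean signal was used here), no filter, the value table, the compared groups alone, an ordinary test, trend and robust moderation, the mean over probes, every probe, and each array left out. In the comparison of IL4 with control, deviations of same-numbered arrays correlated in all 4 pairs (r 0.311 to 0.524), so these arrays deviated together by number. For both comparisons with IL4+emodin the lowest pair was below 0.1 (0.0934 and 0.0559). The labels do not say what a number shares. The number is also the slide column, so shared samples and column position cannot be told apart.

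The fit was tested on simulated data with known changes. Promoters were aligned with Biopython 1.88. Python 3.11.15 and matplotlib 3.10.9 were used for figures.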

Additional observations from a re-analysis of the deposited data

Results flagged for a closer look

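Of 18 groups of 4 arrays examined for a single array far from the rest (6 members, 3 groups), 1 stood out, and about 1 in 20 is flagged by chance. For *Chil1* in the IL4 group, array 1 lay at -3.95 and the nearest of the other 3 at -2.27, a gap of 0.904 of the group's range. Array 1 also had the lowest *Chil1* value of its group in the IL4+emodin and control groups, at -3.71 and -3.96. The mesothelial and fibroblast marker sum, of which *Dcn* is the largest part on average, was lowest on array 1 in each group as well. It was 20.1, 15.8 and 14.2 there in IL4+emodin, IL4 and control. The part of mesothelial cells and fibroblasts in the *Chil1* value was not tested.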

How the results depend on the processing

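No member's called difference changed direction under any alternative. For IL4 against control, 3659 genes were called, 5540 with normexp and 7321 with no filter. *Retnla* (2.35) was called with the replicate block (adjusted p = 0.00388) and *Chil3* (2.66) was lost with the ordinary test (0.0557). In both emodin comparisons 1 pair of same-numbered arrays correlated below 0.1, so the pairing there is a hint from the data only: arrays correlated best with their own number in 4 of 4 pairs against IL4 and in 3 of 4 against control. The replicate block moved the genes called to 15096 and 14515 there and added calls: against IL4, *Chil3* (-1.52, adjusted p = 0.00522) and *Chil4* (-1.87, 0.000168), and against control *Retnla* (-1.19, 0.0312), *Chil3* (1.14, 0.0218) and *Chil4* (1.41, 0.00101). For IL4+emodin against IL4, *Chil3* was also called with quantile (-2.08, 0.0207), spike-in (-2.60, 0.00188), normexp (-1.60, 0.0482), the value table (-2.09, 0.0207) and the compared groups alone (-1.52, 0.0339), and *Chil4* with labelled sex (-1.87, 0.0278), spike-in (-2.95, 0.00148), normexp (-1.86, 0.0210) and the compared groups alone (-1.87, 0.0295). With no filter 22743 genes were called there, against 13750, and 19856 for IL4+emodin against control, against 13125. Spike-in scaling called *Retnla* against control (-2.15, 0.0471) and lost *Rnase2a* (0.43, 0.238). For labelled sex, normexp called 7 genes and no filter 1, against 0.

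Leaving out 1 array at a time gave these ranges of log2 differences. For IL4 against control they were 1.69 to 3.23 for *Retnla*, 2.01 to 3.23 for *Chil3*, 2.64 to 3.87 for *Chil4*, -0.59 to 0.34 for *Chil1* and 2.31 to 2.90 for *Rnase2a*, with 2891 to 3775 genes called. For IL4+emodin against IL4 they were -4.41 to -2.88, -1.97 to -0.99, -2.36 to -1.30, -0.35 to 0.49 and -1.45 to -0.92 in the same gene order, with 12974 to 13934 genes called. *Chil3* and *Chil4* were called there without control array 1 (adjusted p = 0.0365 and 0.0278), control array 3 (0.0483 and 0.0313) or IL4+emodin array 3 (0.0323 and 0.0206), and *Chil4* without IL4 array 1 (0.0367). For IL4+emodin against control they were -2.06 to -0.32, 0.49 to 1.71, 0.77 to 2.00, -0.50 to 0.38 and 1.20 to 1.67, with 12270 to 13031 genes called. *Chil3* and *Chil4* were called there without control array 3 (0.0443 and 0.0355), and *Chil4* without IL4+emodin array 1 (0.0412). Labelled sex gave 0 to 5 genes.

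The scale sets the balance of calls: 59.7% of IL4+emodin against IL4 calls were higher, 48.7% with quantile, 75.4% with no filter and 4.11% with spike-in scaling, which moved the median of all genes to -0.92 from 0.17. Against control the shares were 59.3%, 47.0%, 73.0% and 5.17% (median -0.80, from 0.15). For IL4 against control 51.2% of calls were higher, 73.8% with spike-in scaling and 26.3% with no filter. Signal near background limits *Retnlg*, whose folds are bounds. The cause of these changes was not tested.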
